A study of Mus musculus with 5 samples.

Results

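The genes described here are 10 members of the Bcl2 family, the proteins that decide whether a cell opens its outer mitochondrial membrane and dies by apoptosis. They were taken by symbol from the deposited count table, which names 22869 genes, and all 10 were found: Bax, Bak1, Bbc3, Pmaip1, Bmf, Bcl2l11, Bid, Bcl2, Bcl2l1 and Mcl1. Where a gene had several transcript rows, the row of highest mean stands for it. All 10 passed the filter on low counts. The members were chosen by name for their role and not by a threshold on measured values, but with earlier results of these data known, so no test over the members as a group is given.

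The study sequenced amplified RNA of intervillus cells, the proliferating epithelium between the villi of the newborn gut, laser-captured from the proximal jejunum of mice at postnatal day 0. The 3 control libraries came from Dnmt1 L/+ littermates, with 1 floxed and 1 wild-type allele of Dnmt1, the enzyme that copies DNA methylation after replication; no Cre is named in their genotype. The 2 mutant libraries, numbered 4 and 6, came from Dnmt1 L/L; VillinCre mice, in which both alleles are floxed and the Villin promoter drives Cre in gut epithelium, so that cells of other types captured with it keep Dnmt1. Per the labels, areas were picked by staining of adjoining sections for Ki67, a protein of dividing cells: mutant areas stained negative and control areas positive. Genotype and Ki67 status therefore go together and cannot be told apart in any value below.

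Members of the family meet through short helical stretches called BH domains. The effectors Bax and Bak1 build the pores that release cytochrome c. The guardians Bcl2, Bcl2l1 (Bcl-xL) and Mcl1 hold effectors and BH3-only proteins in check, and the BH3-only proteins Bbc3 (Puma), Pmaip1 (Noxa), Bmf, Bcl2l11 (Bim) and Bid carry stress signals to both. Bax, Bbc3 and Pmaip1 are known targets of the transcription factor p53. In the intestine, Puma is known for the death of crypt progenitors after irradiation, and Mcl1 for keeping epithelial cells alive.

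Reads per library, counted with 1 row per gene, ranged from 10530200 to 13356901 for the controls and were 8730268 and 10260760 for mutants 4 and 6. Dnmt1 itself had 2240, 2163 and 1351 counts in controls and 427 and 525 in mutants. The groups also differed in sex-linked RNA: 4 Y-linked genes together had 2710 to 3160 counts in each control and 4 and 3 in mutants. The X-linked RNA Xist had 66, 72 and 42 counts in controls and 10179 and 8277 in mutants. Sex therefore also goes with genotype in these libraries, and the 2 cannot be told apart in any value below. The labels do not state whether libraries are from different animals, and p-values cover the spread among these 5 libraries alone, part of which may be technical. Levels given as CPM are counts scaled to a common library size after TMM normalisation, and an adjusted p is that of edgeR's quasi-likelihood test with Benjamini-Hochberg adjustment over all transcript rows tested. A gene rose or fell only where this was under 0.05. Mki67, the gene of Ki67, was at 927, 1022 and 773 CPM in controls and still at 511 and 506 CPM in mutants, a fold change of 0.56 (edgeR adjusted p = 0.00284), so its RNA was lower but far from absent.

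In the mutants 3 of the 10 genes rose, the effector Bax and the BH3-only genes Pmaip1 and Bmf, and 0 fell. Of all 14572 genes tested, 6.11% rose and 4.17% fell. None of the 3 guardians passed the test, with fold changes of 0.966 (Mcl1), 0.993 (Bcl2) and 1.11 (Bcl2l1). The median log2 fold change of the 10 members was 0.15, against -0.01 over all genes tested. Both mutants lay above all controls in 5 members (Bax, Bbc3, Pmaip1, Bmf and Bcl2l11) and below them in 0, where 21.7% of all genes lay above and 21.8% below. At an unadjusted p under 0.05 there were 4 members, the 3 risers and Bbc3, where 25.6% of all genes had such a p.

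**Figure D1:**
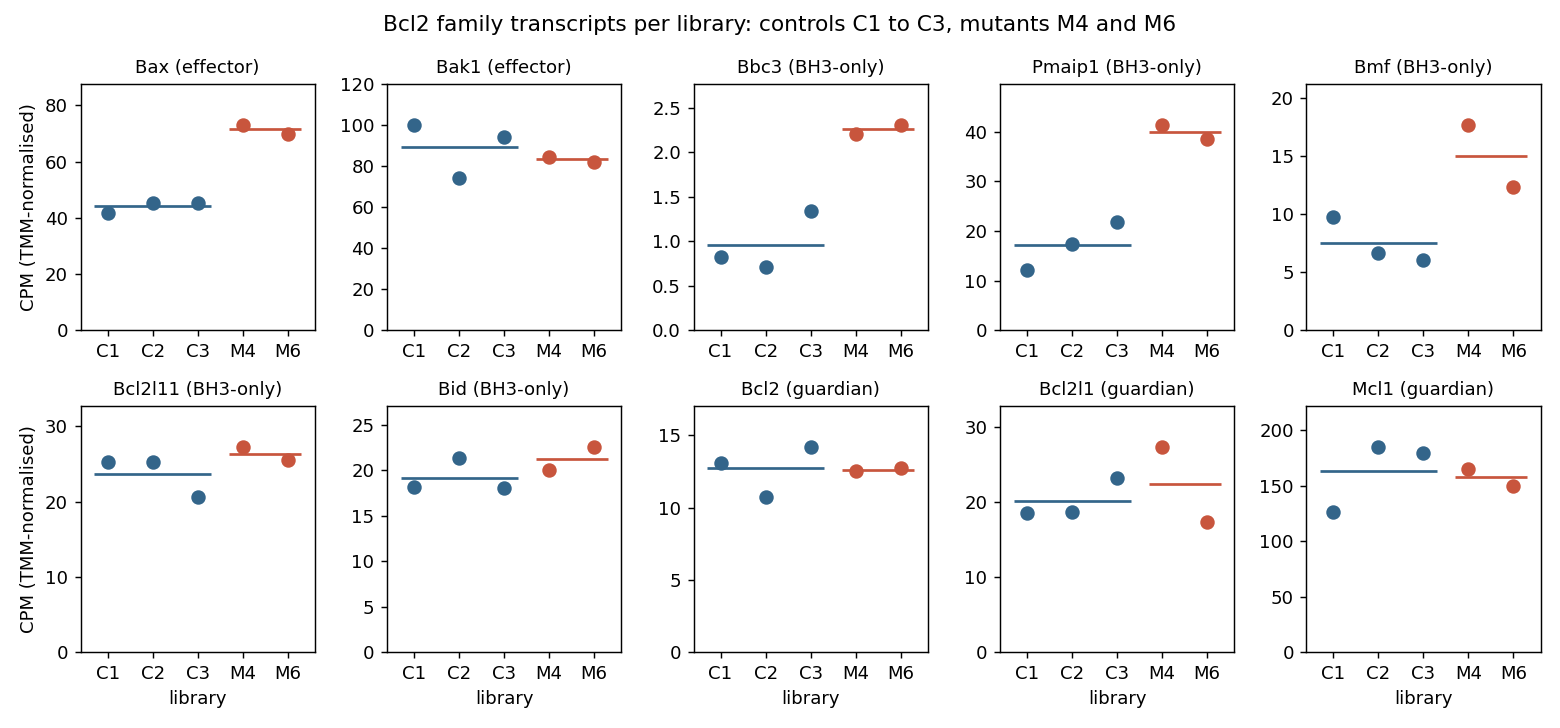
Level of each of the 10 Bcl2 family genes in every library, in CPM after TMM scaling on a linear axis from 0; points are single libraries (blue, controls C1 to C3; red, mutants M4 and M6) and lines the group means. Both mutants lie well above all controls for Bax, Pmaip1 and the scarce Bbc3, which did not pass the test. The mutants lie above the controls by less for Bmf and barely above for Bcl2l11. They overlap the controls for the other 5 genes, with the mutants on opposite sides of the controls for Bcl2l1.

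The DNA just upstream of the start of the risers Bax and Bmf is shown here. The mutation targets the gene of the enzyme that maintains methylation of CG pairs. The capitals show where such pairs lie next to these 2 genes. The letters are the 250 bases before the transcript start, 5′ to 3′ on the gene's strand, from RefSeq on build GRCm38.p6; capitals mark CG pairs. The counts were made on build mm9, and genes were matched to these sequences by symbol, with no mm9 position used. Among the starts listed for a symbol, the one within 60 bases of the counted transcript's start on the newer build was taken. The Bax stretch is chr7:45466899-45467148 and the Bmf stretch chr2:118549687-118549936, both on the minus strand and outside the transcript.
Bax: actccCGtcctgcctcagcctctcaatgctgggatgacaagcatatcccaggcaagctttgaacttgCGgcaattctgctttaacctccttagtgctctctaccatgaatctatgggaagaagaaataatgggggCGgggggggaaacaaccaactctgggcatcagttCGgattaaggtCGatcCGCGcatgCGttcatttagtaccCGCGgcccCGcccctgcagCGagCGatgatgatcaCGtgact
Bmf: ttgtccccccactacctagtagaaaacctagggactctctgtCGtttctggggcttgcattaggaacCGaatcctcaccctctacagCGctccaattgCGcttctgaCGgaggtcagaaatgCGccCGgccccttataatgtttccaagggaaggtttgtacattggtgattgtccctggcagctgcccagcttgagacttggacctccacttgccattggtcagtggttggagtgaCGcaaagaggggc

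The Bax stretch holds 14 CG pairs and the Bmf stretch 8, against a median of 6 and quartiles of 2 and 16 over 32851 RefSeq promoters of the same length. At starts within 60 bases of the counted transcript's start, the other members held 27 (Bbc3), 24 (Bcl2l11), 18 (Bid), 36 (Bcl2) and 12 (Bcl2l1). The 2 risers with a sequence were therefore 14 and 8, and the 5 other members 12 to 36. The nearest listed starts of Mcl1 and Bak1 lay 67 and 382 bases away, with 26 and 8 CG pairs, and Pmaip1 has no entry. A promoter's CG count says how many sites could carry methylation, and methylation was not measured in these files.

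Among the 7 members with a matched start, the consensus half-site of p53 was found upstream of Bax alone, as aggcaagctt from 201 to 192 bases before the start. It occurs in 7.13% of all promoters, searched on both strands, since the consensus is its own reverse complement. CACGTG, the E-box bound by Myc and related factors, was also found in Bax alone of these 7, 9 to 4 bases before the start, and it occurs in 6.02% of promoters. Other listed starts of the same genes also had matches. The p53 half-site occurred upstream of a Bmf start 5100 bases away, and CACGTG upstream of a Bbc3 start 815 bases away. GGGCGG, the GC box, was counted on both strands and can overlap CG pairs: it occurred 2 times in Bax, 5 in Bbc3, 3 in Bcl2l11, 3 in Bid, 7 in Bcl2, and 0 times in Bmf and Bcl2l1, and at least once in 32.7% of promoters. These are matches of letters and not sites shown to be bound.

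Bax and Bak1 form the pore, and they parted in these libraries. Bax had 758, 767 and 640 counts in controls and 826 and 906 in mutants, or 41.7, 45.4 and 45.1 CPM against 73.1 and 69.9 CPM. Both mutants lay well above all controls, and the controls differed little among themselves. Its mean went from 44.1 ± 2.03 CPM (SD, n = 3) to 71.5 ± 2.24 CPM (SD, n = 2), a 1.62-fold rise (95% interval 1.33 to 1.98; edgeR adjusted p = 0.00459).

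Bak1 was at 100.0, 73.9 and 93.8 CPM in controls and 84.2 and 81.9 CPM in mutants. The mutants sat inside the control range. Its fold change was 0.93 (95% interval 0.745 to 1.16; edgeR adjusted p = 0.7). Whether the changes of Bax and Bak1 differ was not tested as such.

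On the deposited FPKM, which scale reads to transcript length and allow levels of different genes to be compared, Bax was 50.3, 47.2 and 45.8 in controls and 83.7 and 70.6 in mutants. Bak1 was 54.2, 38.5 and 43.0 FPKM in controls and 42.0 and 39.4 FPKM in mutants. The 2 effector transcripts thus overlapped in controls, while in both mutants the Bax level was above that of Bak1. The rise of Bax was as large on FPKM but missed the threshold there, with a log2 fold change of 0.69 at a pseudocount of 0.1 (limma adjusted p = 0.0544), and without mutant 4 it was 0.67 on counts (edgeR adjusted p = 0.0621).

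BH3-only genes differed most among themselves. Pmaip1 encodes Noxa, which binds Mcl1 above all and helps mark it for breakdown. Pmaip1 had 222, 293 and 309 counts in controls and 468 and 499 in mutants, or 12.2, 17.3 and 21.8 CPM against 41.4 and 38.5 CPM. The lower mutant was well above the highest control, although the controls themselves spread over a wide range (a coefficient of variation of 27.9%, against 4.6% for Bax). The mean went from 17.1 ± 4.77 to 40.0 ± 2.05 CPM, a 2.34-fold rise (95% interval 1.71 to 3.21; edgeR adjusted p = 0.00232). Among the 3 risers Pmaip1 alone passed the test under all 16 alternatives, with a log2 fold change of 1.03 to 1.43 and a highest adjusted p of 0.0236.

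Bmf, which is held on the cytoskeleton and freed when cells detach, had 177, 113 and 86 counts in controls and 200 and 159 in mutants. In CPM these were 9.74, 6.69 and 6.06 against 17.7 and 12.3. The groups did not overlap, but control 1 came near mutant 6, and the mutants differed from each other more than those of Bax or Pmaip1. Its mean went from 7.5 ± 1.97 to 15.0 ± 3.84 CPM, a 1.99-fold rise (95% interval 1.34 to 2.95; edgeR adjusted p = 0.0305). The call was lost without control 2 (log2 fold change 0.93; edgeR adjusted p = 0.0663), control 3 (0.86; 0.0615) or mutant 4 (0.70; 0.278), and on FPKM (limma adjusted p of 0.253 to 0.284).

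Bbc3 encodes Puma, which binds all guardians, and was the scarcest member. It had 15, 12 and 19 counts in controls and 25 and 30 in mutants, so its estimate is imprecise. In CPM these were 0.826, 0.71 and 1.34 against 2.21 and 2.31. Both mutants were above all controls, yet the difference did not pass: the fold change was 2.37 (95% interval 1.11 to 5.09; edgeR adjusted p = 0.144). On FPKM the groups overlapped, with 0.458, 0.692 and 0.551 in controls and 1.15 and 0.561 in mutants, and the log2 fold change was 0.46 at a pseudocount of 0.1.

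Bcl2l11 encodes Bim, which also binds all guardians and can bind effectors directly. Its levels were 25.3, 25.3 and 20.6 CPM in controls and 27.3 and 25.5 CPM in mutants. Mutant 6 stood just above the higher controls, so the lack of overlap here is a matter of a small margin. Its fold change was 1.11 (95% interval 0.86 to 1.44; edgeR adjusted p = 0.618). The 3 transcript rows of Bcl2l11 in the table, with 282 to 444, 293 to 459 and 289 to 454 counts in controls, have near-identical counts in each library, so the isoforms of Bim cannot be told apart here.

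Bid links death receptors to mitochondria after it is cut by caspase 8. It was at 18.2, 21.4 and 18.1 CPM in controls and 20.0 and 22.6 CPM in mutants. Mutant 4 lay within the control range and mutant 6 just above it, and the fold change was 1.11 (95% interval 0.845 to 1.45; edgeR adjusted p = 0.65).

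Among the guardians, Mcl1, a short-lived protein that cells must keep making, was the most abundant. Its counts were 2295, 3121 and 2545 in controls and 1870 and 1949 in mutants, or 126, 185 and 179 CPM against 165 and 150 CPM. Control 1 was the lowest library and both mutants lay between the controls. The fold change was 0.966 (95% interval 0.758 to 1.23; edgeR adjusted p = 0.883).

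Bcl2, the founding member of the family, was at 13.1, 10.7 and 14.2 CPM in controls and 12.5 and 12.7 CPM in mutants. The mutants again lay between the controls. Its fold change was 0.993 (95% interval 0.72 to 1.37; edgeR adjusted p = 0.985). A second Bcl2 row, for the transcript NM_177410, had 95, 60 and 87 counts in controls and 55 and 67 in mutants and did not pass either (edgeR adjusted p = 0.982).

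Bcl2l1, whose long product is Bcl-xL, was the guardian on which the mutants disagreed. It was at 18.6, 18.7 and 23.2 CPM in controls, 27.4 CPM in mutant 4 and 17.4 CPM in mutant 6. Mutant 4 was thus the highest and mutant 6 the lowest of the 5 libraries. The fold change was 1.11 (95% interval 0.804 to 1.53; edgeR adjusted p = 0.71), and the log2 fold change was -0.22 without mutant 4 and 0.44 without mutant 6. The table has 1 row for this gene, so the long and short products, which act in opposite ways, were not separated.

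**Figure D2:**
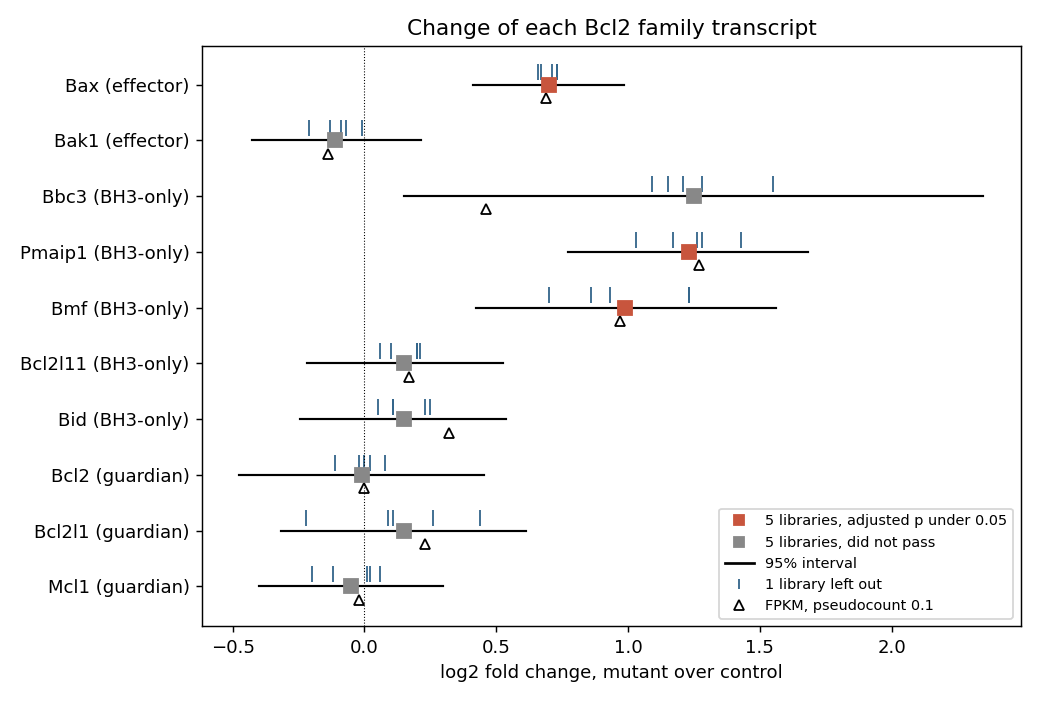
Log2 fold change, mutant over control, of each of the 10 genes, with its 95% interval from edgeR (squares and lines; red where the adjusted p is under 0.05), the values with 1 library left out (blue ticks) and the value on deposited FPKM with a pseudocount of 0.1 (triangles). Bax, Pmaip1 and Bmf lie to the right of 0 in every setting drawn, the interval of Bbc3 is the widest, and the ticks of Bcl2l1 fall on both sides of 0.

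Compared per length, the control transcripts formed 3 tiers. Bax (47.7 ± 2.31 FPKM), Bak1 (45.2 ± 8.1) and Mcl1 (41.8 ± 8.26) were the highest and did not differ from each other beyond their spread. Bid (9.0 ± 1.42), Bcl2l1 (7.35 ± 0.506), Pmaip1 (5.76 ± 0.537) and Bcl2l11 (4.43 ± 0.841) followed. In that tier Bid overlapped Bcl2l1, Bcl2l1 lay above Pmaip1 in all 3 controls, and the lowest Pmaip1 value (5.26) was just under the highest of Bcl2l11 (5.27). Bcl2 (1.72 ± 0.193) and Bmf (1.58 ± 0.663) overlapped, and Bbc3 was lowest (0.567 ± 0.118). In the mutants Pmaip1 stood at 14.4 and 13.6 FPKM, above Bid (9.27 and 13.5), Bcl2l1 (11.2 and 6.6) and Bcl2l11 (5.14 and 4.75) in both libraries. Bmf, at 3.15 and 2.85 FPKM, was above Bcl2, at 1.67 and 1.76.

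**Figure D3:**
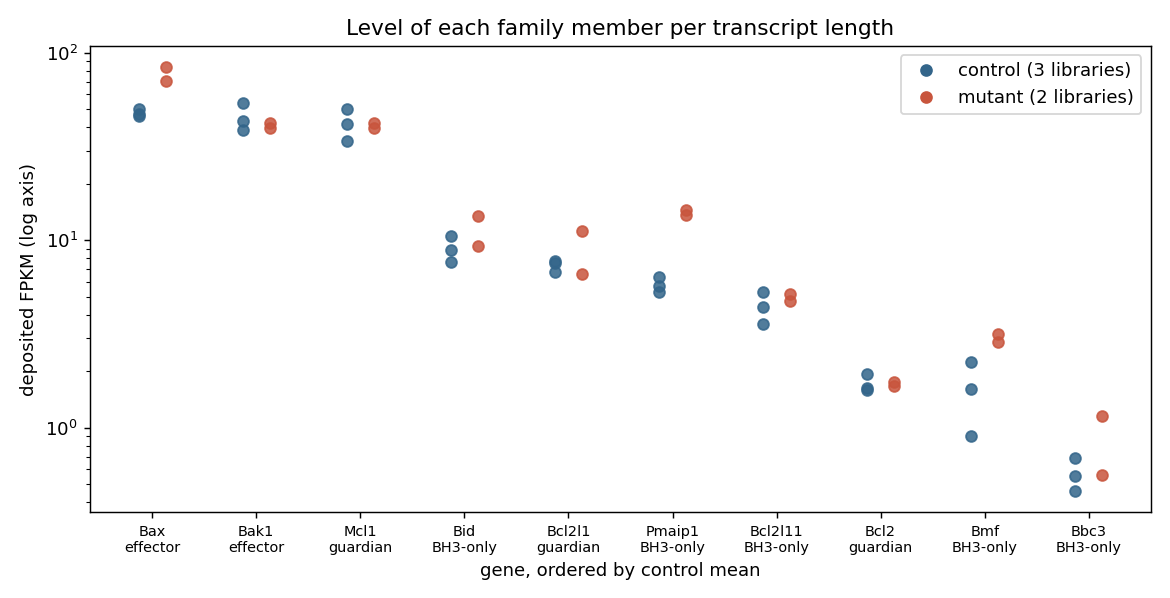
Deposited FPKM of the 10 genes on a log axis, ordered by the control mean, with 1 point per library (blue, 3 controls; red, 2 mutants). Bax, Bak1 and Mcl1 form the top tier in all libraries, and Pmaip1 goes from 5.26 to 6.33 FPKM in controls to 13.6 and 14.4 FPKM in mutants.

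The balance of effector to guardian was described by ratios of FPKM within each library. Bax to Bcl2 was 25.9, 29.8 and 28.1 in controls and 50.0 and 40.2 in mutants, so the mutants lay above all controls. Bax to Bcl2l1 was 7.43, 6.22 and 5.95 in controls and 7.48 and 10.7 in mutants, where mutant 4 barely exceeded control 1. Bak1 to Mcl1 was 1.61, 0.766 and 1.04 in controls and 1.0 and 1.0 in mutants, inside the control range. The 5 BH3-only genes together made up 13.1%, 14.0% and 11.6% of the summed FPKM of the 10 members in controls and 15.5% and 18.3% in mutants. The 3 guardians made up 25.1%, 35.2% and 32.2% and then 25.7% and 24.7%, where mutant 4 overlapped control 1. The effectors Bax and Bak1 together made up 61.8%, 50.8% and 56.2% in controls and 58.8% and 57.0% in mutants, inside the control range. These are RNA ratios, and proteins of this family are also controlled by breakdown, cutting and location.

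Of 18 further genes of the family or named with it, 15 passed the filter on low counts, of which 1 rose and 1 fell, with a median log2 fold change of 0.21. Both counts are near the shares over all genes (6.11% and 4.17%). Bcl2l2, the guardian Bcl-w, rose by 1.04 ± 0.25 log2 units (SE; edgeR adjusted p = 0.0169). Controls had 436, 483 and 459 counts, mutant 4 had 905 and mutant 6 had 476, so mutant 4 was far above all others and mutant 6 only just above the controls in CPM (36.7 against at most 32.3). Without mutant 4 the log2 fold change was 0.38 (edgeR adjusted p = 0.393), and the call was also lost without control 1 (0.0899). Pabpn1, its neighbour in the genome, fell by 0.51 log2 units (edgeR adjusted p = 0.042), and reads of the 2 genes may not be fully separated.

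Bnip1, a membrane-fusion protein with a BH3 domain, fell by 0.71 ± 0.20 log2 units, from 19.2 ± 1.11 to 11.7 ± 1.31 CPM (edgeR adjusted p = 0.0351). Without control 1, mutant 4 or mutant 6 the log2 fold change was -0.67, -0.83 and -0.61 and did not pass (edgeR adjusted p of 0.127, 0.107 and 0.214). Becn1, Bnip3l and Bcl2l13, the most abundant of those that did not pass, had log2 fold changes of 0.20, -0.14 and -0.07. The effector relative Bok was at 7.43 ± 3.97 and 12.9 ± 3.23 CPM and did not pass (edgeR adjusted p = 0.176). Hrk had 0 counts in all 5 libraries, and Bik and Bcl2l10 had at most 12 and 1 in any library.

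Of 26 genes that act on the family's transcription, stability or location, 24 were tested and 0 passed the edgeR test, where 6.11% of all genes rose and 4.17% fell. At an unadjusted p under 0.05 there were 4 of 24, against 25.6% of all genes, and at most 2 passed under any alternative. With so few genes, 0 calls is near the background, and it does not show that these genes were unchanged. Their median log2 fold change was -0.06. Trp53, which encodes p53, was at 126 ± 3.93 CPM in controls and 123 ± 1.6 CPM in mutants. Huwe1, a ligase that marks Mcl1 for breakdown, had a log2 fold change of -0.07 ± 0.13, Tmbim6 of 0.21 ± 0.13 and Vdac2, a channel that binds Bak1 at the mitochondrion, of 0.12 ± 0.13. Ddit3 (Chop), which can raise Bim, was at 11.4 ± 1.3 and 17.7 ± 0.602 CPM, a log2 fold change of 0.64 that did not pass (edgeR adjusted p = 0.0612). Of similar size and also not past the threshold were Pim3, a kinase, at -0.65 (edgeR adjusted p = 0.0721) and E2f1, a transcription factor of the cell cycle, at -0.62 (0.137).

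Downstream of the family, 19 genes of cytochrome c release, the apoptosome, caspases and their inhibitors were tested. Of these 0 rose and 2 fell, and the median log2 fold change was -0.15. Over all genes 6.11% rose and 4.17% fell, so the number of calls among these 19, both directions together, is at the background. Both mutants lay below all controls in 8 of the 19 and above them in 1, where 21.8% and 21.7% of all genes did. At an unadjusted p under 0.05 there were 7 of 19, against 25.6% of all genes. Casp6, an executioner caspase, fell by 0.77 ± 0.17 log2 units (edgeR adjusted p = 0.0126), from 76.5 ± 15.9 to 44.9 ± 0.679 CPM. Birc5 (survivin), which also serves in mitosis, fell by 0.82 ± 0.16 log2 units (edgeR adjusted p = 0.00606). The part of the choice of areas by Ki67 in this fall was not tested. Without mutant 4 neither passed: Casp6 was at -0.76 (edgeR adjusted p = 0.107), as large as with all libraries, and Birc5 at -0.62 (0.122). Casp6 also missed the threshold without control 1 (-0.67; edgeR adjusted p = 0.0682) or mutant 6 (-0.79; 0.0798). Birc6, Opa1 and Dnm1l, the most abundant of the others, had log2 fold changes of -0.32, -0.30 and 0.05.

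Of 13 genes of the death receptor arm, which feeds into Bid, 12 were tested, 2 rose and 0 fell, with a median of 0.15, where 6.11% of all genes rose and 4.17% fell. The 2 risers belong to necroptosis, a form of death that does not run through the Bcl2 family: the kinase Ripk3 (0.62 ± 0.15; edgeR adjusted p = 0.0157) and the pore former Mlkl (1.07 ± 0.23; edgeR adjusted p = 0.00977). Ripk3 was at 54.2 ± 7.52 and 83.2 ± 4.32 CPM and Mlkl at 8.31 ± 1.24 and 17.5 ± 3.9 CPM. Neither passed without mutant 4, with Ripk3 at 0.67 (edgeR adjusted p = 0.0812) and Mlkl at 0.82 (0.153), and Ripk3 missed the threshold without mutant 6 as well (0.56; 0.137). Casp8, Tnfrsf1a and Ripk1 had log2 fold changes of -0.23, 0.15 and 0.16.

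Of 20 other targets of p53 all were tested, 9 rose and 0 fell, with a median of 0.63, where 6.11% of all genes rose and 4.17% fell; the list was written with earlier results of these data known. Rises in log2 units were 1.25 for the CDK inhibitor Cdkn1a, 1.15 for Ccng1, 0.94 for Zmat3, 0.78 for Trp53inp1, 2.75 for Eda2r, 1.27 for Plk3, 1.52 for Phlda3, 1.63 for Gdf15 and 2.03 for Psrc1. They numbered 4 without mutant 4. With all libraries the edgeR adjusted p of the 9 ran from 6.71e-05 (Ccng1) to 0.0408 (Gdf15). Eda2r had only 4, 6 and 5 counts in controls and 24 and 27 in mutants, and Gdf15 34, 20 and 10 against 48 and 47. On FPKM with a pseudocount of 1, 3 of the 20 genes rose. Eda2r was then at 0.54 and Psrc1 at 0.89, and neither passed (limma adjusted p of 0.197 and 0.126). Perp, Ei24 and Sesn1, which were not called, had log2 fold changes of 0.35, 0.02 and 0.06. Gtse1, which also serves in mitosis, was the 1 gene of the list with a negative value, at 16.7 ± 2.19 CPM in controls and 10.1 ± 2.66 CPM in mutants (-0.74; edgeR adjusted p = 0.0611), with both mutants below all controls. The 3 members known as p53 targets had log2 fold changes of 0.70 (Bax), 1.23 (Pmaip1) and 1.25 (Bbc3, which did not pass). The list of 20 leaves out Mdm2, Fas and Apaf1, also known targets, which were counted among the regulators, death receptor arm and downstream genes. Their log2 fold changes were 0.21, -0.36 and -0.17, and none passed (edgeR adjusted p of 0.383, 0.403 and 0.437).

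**Figure D4:**
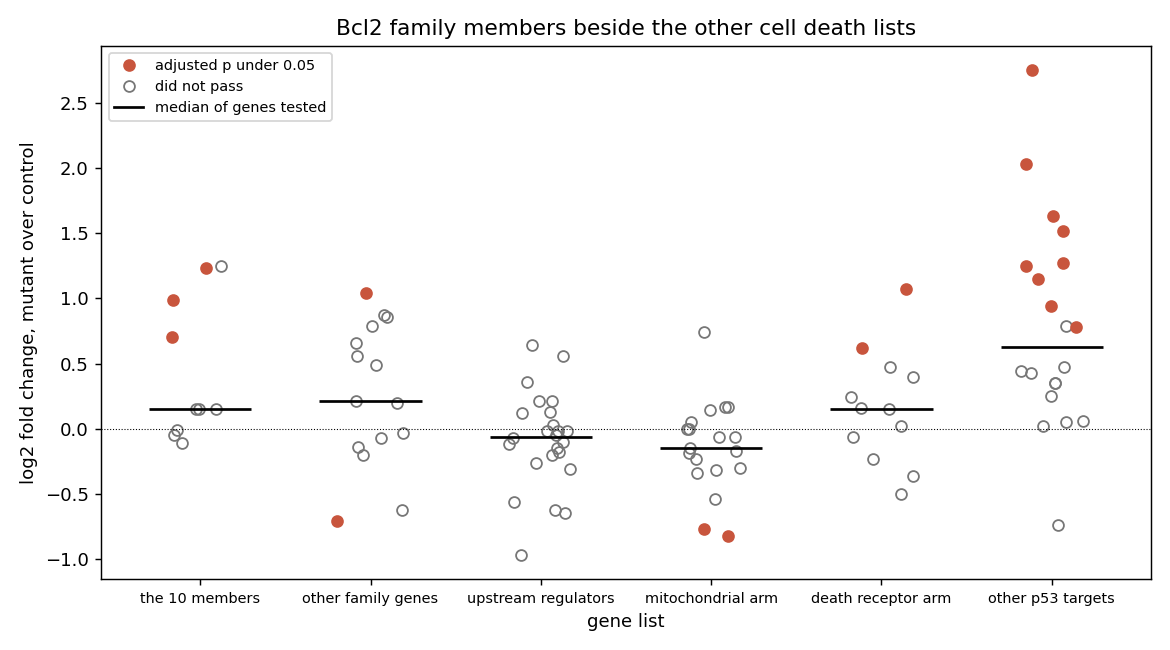
Log2 fold change, mutant over control, of every tested gene in the 10-member set and in 5 related lists; red points have an edgeR adjusted p under 0.05, open points did not pass, and lines are medians of the genes tested. The 10 members split into 4 genes at 0.70 or above and 6 between -0.11 and 0.15, and the regulators hold no red point.

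For each riser the genes with the most similar profile were found by the root mean square difference in log2 CPM, centred on each gene's mean over the 5 libraries. Nearest to Bax were Gab1 (0.0414 log2 units), Ttc39a (0.0439) and Chmp6 (0.0457). Nearest to Pmaip1 were Mir214 (0.0685), Cpxm2 (0.104) and Lama3 (0.114), and nearest to Bmf were Gm5069 (0.0583), Fndc3c1 (0.0837) and Grik4 (0.0875). The 3 nearest to Bax passed the test themselves, as did Lama3, but Mir214, Cpxm2, Gm5069, Fndc3c1 and Grik4 did not (edgeR adjusted p of 0.146, 0.18, 0.257, 0.219 and 0.356), so their profiles are imprecise.

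All 10 epithelial markers were detected in both groups, as the label asks, and their summed level was 4629 to 4774 CPM in controls and 4350 and 4477 CPM in mutants. Single epithelial markers moved both ways: Krt18 rose by 0.79 log2 units (edgeR adjusted p = 0.00255) and Cdx2 fell by 0.94 (0.00454). Of the 10, 5 lay below all controls in both mutants, where 21.8% of all genes did. Over all genes 6.11% rose and 4.17% fell, which is the background for the marker calls that follow. The summed level of 10 enterocyte markers was 22371 to 38544 against 49402 and 50692 CPM, with 6 of 10 risen, among them Apoa4 (1.33 log2 units). That of 10 mesenchymal markers was 1093 to 1185 against 1684 and 1807 CPM, with 6 of 10 risen, among them Col3a1 (0.61) and Col1a2 (0.64). On FPKM, at each of the 3 settings, 1 enterocyte marker and 0 mesenchymal markers rose, and the calls of Krt18 and Cdx2 were lost. With 1 control left out, 4 to 9 enterocyte markers and 3 to 7 mesenchymal markers rose. Summed immune markers (9 genes) were 112 to 158 against 267 and 279 CPM with 1 of 8 tested risen, Csf1r (1.54), which by itself held 57.5 ± 14.7 and 167 ± 10.4 CPM of these sums. Neural ones (8 genes) were 21.9 to 32.7 against 54.5 and 57.2 CPM with 2 of 5 tested risen, S100b, at 6.73 ± 0.681 and 22.9 ± 0.526 CPM, and the scarcer Uchl1. Erythroid markers (6 genes) were 44.5 to 53.2 against 58.6 and 58.7 CPM, with 0 risen and 1 fallen of 4 tested, Alas2 (-1.02). Hba-a1 and Hba-a2 had identical counts in each library, each at 17.0 ± 1.45 CPM in controls and 22.4 ± 0.301 CPM in mutants. The erythroid sums thus appear to count the same reads more than once. Endothelial markers (8 genes) were 172 to 206 against 214 and 242 CPM, with 0 of 8 passing the edgeR test and 1 at an unadjusted p under 0.05. No marker had 0 counts in all 5 libraries. The part of these shifts in the rises of Bax, Pmaip1 and Bmf was not tested, and in bulk RNA fewer cells of a type and less RNA per cell cannot be told apart.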

How the data were processed

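RNA captured by laser, amplified and read as single reads, per the labels' protocols, from 3 control and 2 mutant libraries was compared. The deposited tables, of 28644 RefSeq transcripts each, hold raw counts and FPKM made by the authors. The ratio of FPKM to counts varies between libraries by a factor that differs from gene to gene, so one table is no simple rescaling of the other. The submitters' processing notes name build mm9 and edgeR; the aligner, counter and strand setting are not given there. Rows of the same gene repeat reads. In 41 rows a spreadsheet date stood for the symbol and was replaced by transcript through a RefSeq table of GRCm38.p6.

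Counts were tested in R 4.3.3 with edgeR 4.0.16 (quasi-likelihood F-test, default low-count filter, TMM, no covariate, 3 residual degrees of freedom), with Benjamini-Hochberg adjustment over 19353 rows (14572 genes). Standard errors were taken from the log2 fold change and its F statistic, and 95% intervals use the t quantile at the moderated degrees of freedom. FPKM were tested as log2(FPKM + pseudocount) with limma 3.58.1, which shrinks the change of low genes. Alternatives were DESeq2 1.42.0, the exact test, limma-voom, other scalings and filters, 1 row per gene, the lowest row of a gene, FPKM, and leaving out each library. The fit was also run on simulated counts in which each row was drawn independently. Rows of the same gene share reads in the data, so that run does not give the rate of false calls here. No pair of libraries in a group agreed within sampling noise (chi-square per gene 10.1 to 26.4). Counts range from 12 to 3121 per member and library.

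The members and lists were chosen with earlier results of these data known. All members are named, and of each other list every gene that passed and up to 3 abundant genes that did not. Bok, Trp53, Ddit3, Pim3, E2f1, Gtse1, Mdm2, Fas, Apaf1, Krt18, Cdx2, Uchl1, Alas2, Hrk, Bik and Bcl2l10 were named after their values were seen.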

Additional observations from a re-analysis of the deposited data

How the results depend on the processing

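No paired analysis was possible because the control libraries are numbered 1, 2 and 3 and the mutants 4 and 6, so the groups share no number. The 3 rises among the members were also called with RLE or upper-quartile scaling, without a filter or with the stricter filter, with DESeq2, the exact test and limma-voom, and with 1 row per gene. On FPKM (pseudocount 1, pseudocount 0.1, mean of at least 1) 1 member rose, Pmaip1; Bax was then 0.68, 0.69 and 0.68 and Bmf 0.67, 0.97 and 0.67, and neither passed. With 1 library left out 1 (without mutant 4) to 3 members rose, with Bax at 0.66 to 0.73 and Bmf at 0.70 to 1.23. Among members that were not called, Bcl2 (-0.01) turned to 0.03 with upper-quartile scaling, 0.01 with the stricter filter or limma-voom, 0.00 on FPKM at each of the 3 settings, 0.02 in its lower row and -0.11 to 0.08 with 1 library left out; Bcl2l1 ranged from -0.22 to 0.44 and Mcl1 from -0.20 to 0.06 in the same way. Bbc3 gave no value with the stricter filter or a mean FPKM of at least 1.

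Over all genes, 891 rose and 608 fell. On FPKM 271, 282 and 258 rose and 99, 128 and 131 fell, without a filter 935 fell, and with 1 library left out the lowest and highest counts were 408 and 1057 rises and 170 and 645 falls. Rises made up 59.4% of calls, but 73.2% on FPKM with pseudocount 1, 70.6% without mutant 4 and 72.2% without mutant 6. In the other lists FPKM left 0 rises among the further family genes (main value 1) and the death receptor arm (2), 0 falls in the mitochondrial arm (2), and 3, 2 and 3 rises among p53 targets (9). Without a filter 2 further family genes rose. The exact test called 1 fall in the death receptor arm, and it and upper-quartile scaling called 1 rise among the regulators. No filter, DESeq2 and the exact test each called 1 fall among p53 targets. With 1 library left out the ranges were 0 to 3 rises and 0 to 1 falls among further family genes, 0 to 2 rises among regulators, 0 to 2 falls in the mitochondrial arm, 0 to 2 rises in the death receptor arm, and 4 to 9 rises and 0 to 1 falls among p53 targets. The cause of these shifts was not tested. Depth limits Bbc3 most, with 12 to 30 counts a library.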
